A study of Homo sapiens with 4 samples.

Results

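Interferon-stimulated genes are described here in 2 human multiple myeloma cell lines, KMS18 and KMS28BM, with and without knockdown of protein kinase C alpha (PKCα). The 49 genes were taken as the rows of the deposited gene tables that carry 1 of 49 listed symbols, out of 22187 genes after rows with the same symbol were summed. All 49 had at least a trace of reads in 1 or more of the 4 libraries, and 41 passed the filter on low counts. Both lines, labelled K18 and K28BM, are plasma cell lines with the t(4;14) translocation, which all 4 libraries therefore share. A control labelled Luc and a stable PKCα knockdown were sequenced once in each line, so no culture is replicated, and how the knockdown was made is not stated in the labels. In what follows a pair of values gives the control first and the knockdown second. The comparison asks how interferon-stimulated genes stand in each line at baseline and what happened to them when PKCα was lowered.

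Interferons are secreted proteins that warn cells of viral infection. Type I interferons bind IFNAR1 and IFNAR2, the kinases JAK1 and TYK2 then act on STAT proteins, and STAT2 and IRF9 become parts of the factor ISGF3, which binds interferon-stimulated response elements (ISRE) in promoters. Interferon gamma leads to binding at gamma-activated sites (GAS), and IRF1 is a classical target of that arm. The induced genes include RNA sensors, RNA-binding proteins, nucleases, GTPases and the ubiquitin-like protein ISG15, and many cancer cells express some of them with no added interferon.

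The promoters of 7 of these genes are shown because 6 of them belong to genes that changed with the knockdown and the other, that of DTX3L, is shared with such a gene. They were read from RefSeq (GRCh38.p14), as 250 bases before to 50 after a listed transcript start (for IFIT3 the second of 2). Capitals mark matches to GAAANNGAAA, an ISRE-type core, or to TTCNNNGAA, a GAS-type palindrome, each searched on both strands, where neighbouring or overlapping matches merge into 1 run. UBE2L6 and HELZ2, which also changed with the knockdown, are not shown, and no listed window of theirs held a match of either kind.
IFIT3 (chr10:89332279-89332578, plus strand): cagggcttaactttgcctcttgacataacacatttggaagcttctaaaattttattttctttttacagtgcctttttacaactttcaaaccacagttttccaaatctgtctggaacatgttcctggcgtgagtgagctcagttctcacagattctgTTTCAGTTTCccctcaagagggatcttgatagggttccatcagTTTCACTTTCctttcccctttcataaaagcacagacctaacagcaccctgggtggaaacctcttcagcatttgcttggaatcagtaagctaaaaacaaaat
IFIT5 (chr10:89414318-89414617, plus strand): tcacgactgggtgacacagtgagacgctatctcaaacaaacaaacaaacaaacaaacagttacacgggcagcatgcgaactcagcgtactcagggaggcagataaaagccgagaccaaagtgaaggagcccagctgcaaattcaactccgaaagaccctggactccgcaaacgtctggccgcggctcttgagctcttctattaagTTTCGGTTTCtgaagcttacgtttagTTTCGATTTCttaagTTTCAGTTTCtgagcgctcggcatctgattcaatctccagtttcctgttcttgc
ISG15 (chr1:1013247-1013546, plus strand): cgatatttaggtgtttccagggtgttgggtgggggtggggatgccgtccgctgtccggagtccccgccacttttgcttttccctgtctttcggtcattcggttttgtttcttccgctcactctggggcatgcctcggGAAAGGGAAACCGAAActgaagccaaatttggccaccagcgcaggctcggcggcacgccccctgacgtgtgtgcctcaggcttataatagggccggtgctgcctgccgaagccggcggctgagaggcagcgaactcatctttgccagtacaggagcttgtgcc
GBP1 (chr1:89065159-89065458, minus strand): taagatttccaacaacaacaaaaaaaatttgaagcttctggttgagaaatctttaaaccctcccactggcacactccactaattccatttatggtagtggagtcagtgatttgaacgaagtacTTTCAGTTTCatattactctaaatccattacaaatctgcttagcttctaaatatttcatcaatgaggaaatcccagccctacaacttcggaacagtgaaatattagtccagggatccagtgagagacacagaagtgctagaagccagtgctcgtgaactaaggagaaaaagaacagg
IRF1 (chr5:132490724-132491023, minus strand): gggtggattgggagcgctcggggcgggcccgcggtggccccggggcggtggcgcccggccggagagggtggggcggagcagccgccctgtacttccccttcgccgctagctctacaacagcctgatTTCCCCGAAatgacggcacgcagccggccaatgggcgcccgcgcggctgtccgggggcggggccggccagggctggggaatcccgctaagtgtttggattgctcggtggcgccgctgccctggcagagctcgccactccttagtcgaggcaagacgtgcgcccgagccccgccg
DTX3L (chr3:122564088-122564387, plus strand): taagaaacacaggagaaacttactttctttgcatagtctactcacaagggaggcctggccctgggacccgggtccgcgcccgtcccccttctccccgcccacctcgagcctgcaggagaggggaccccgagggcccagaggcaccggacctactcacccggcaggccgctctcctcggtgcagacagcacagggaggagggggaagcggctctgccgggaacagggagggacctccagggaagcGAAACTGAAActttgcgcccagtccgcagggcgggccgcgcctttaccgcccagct
ISG20 (chr15:88638766-88639065, plus strand): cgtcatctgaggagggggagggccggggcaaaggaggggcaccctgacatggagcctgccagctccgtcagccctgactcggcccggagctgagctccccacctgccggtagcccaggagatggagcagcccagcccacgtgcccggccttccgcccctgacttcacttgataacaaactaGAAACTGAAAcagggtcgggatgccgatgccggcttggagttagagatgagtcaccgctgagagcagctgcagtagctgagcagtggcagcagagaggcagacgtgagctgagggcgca

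The letters of an ISRE core were frequent among the members. Of 38 members with a RefSeq promoter, 24 (63.2%) held GAAANNGAAA in at least 1 listed window, against 4.38% of 27305 genes. TTCNNNGAA was found for 10 of the 38 (26.3%), against 9.38% of all genes. ISG15 held 2 overlapping ISRE-type matches, the first base of the outer one 113 bases before the start. IFIT5 held 3, within 45 bases of its start, and IRF1 held a GAS-type match beginning 124 bases before its start. PARP9 and DTX3L are transcribed away from each other from starts 38 bases apart, and the same 10 bases on chromosome 3, 122564332 to 122564341, gave the match counted for each. Of the 8 members called higher with the knockdown 5 held an ISRE-type match, as did 12 of 22 tested members that were not called. The median log2 difference was 0.54 for the 18 tested members with a match and 0.40 for the 13 without. This order depends on how promoters are counted. Counting was first done with only the first-listed window of each gene, and was changed to any listed window after those values were seen, since the first way missed the match of PARP9. By the first way 22 of 38 members held a match, against 3.57% of 35116 windows, 4 of the 8 called members did, and the medians were 0.39 with and 0.47 without, in the opposite order. No direction is read from them. A match of letters is a description of the window, not a bound site.

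**Figure D1:**
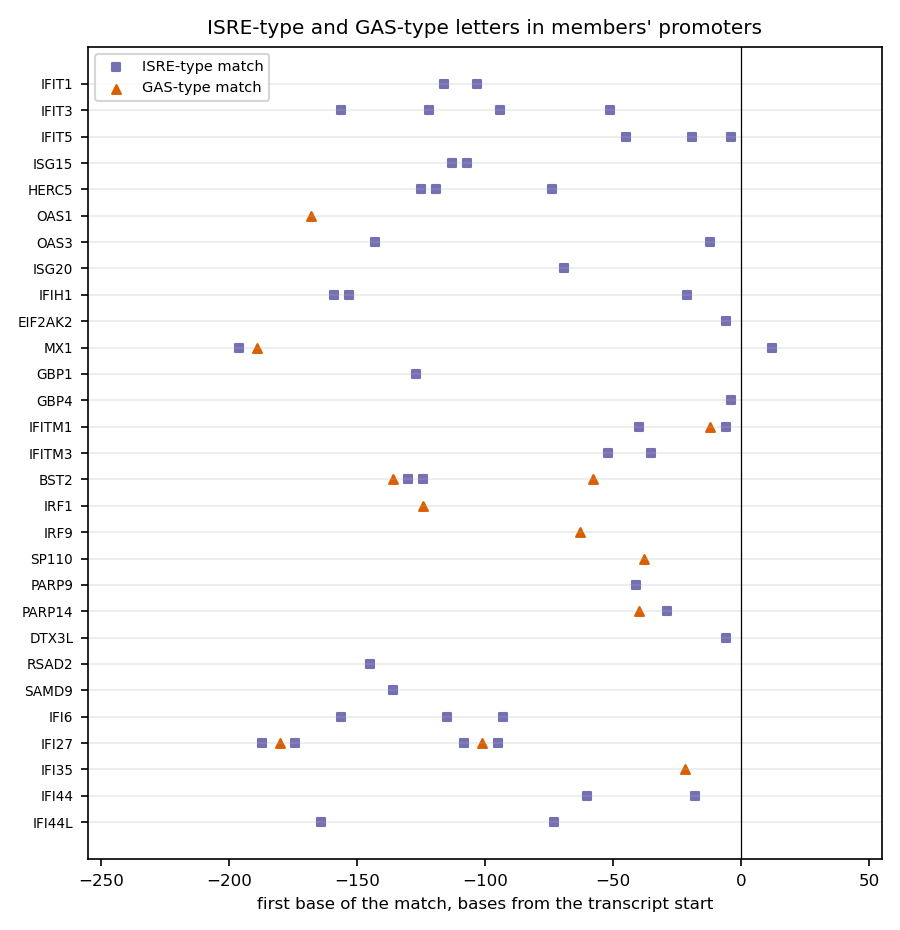
Position of each ISRE-type (squares) and GAS-type (triangles) match in the members' RefSeq promoters, in bases from the transcript start (x axis), with 1 row per member that had a match. Members with several listed starts show the matches of all their windows, and all but 1 of the matches, in MX1, begin before the start.

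At baseline the 49 genes ranged from near 0 to very high levels. Levels are given as FPKM (fragments scaled to gene length and library size), which can be compared between genes. In the KMS18 control 28 members reached 1 FPKM and 15 reached 10 FPKM, and in the KMS28BM control these numbers were 26 and 11. BST2, or tetherin, a membrane protein that holds budding virus particles on the cell surface and is a known myeloma surface antigen, was the highest, at 399.9 FPKM in the KMS18 control and 233 FPKM in the KMS28BM control. ADAR, the enzyme that edits adenosines in double-stranded RNA, followed at 102 and 110 FPKM. BST2 and ADAR together made up 56.9% and 55.5% of the summed FPKM of the 49 genes in the KMS18 and KMS28BM controls. UBE2L6, IRF1, SAMD9L, ISG20 and SAMD9 were also among the 8 highest members in both controls, with IFIH1 in KMS18 and STAT2 in KMS28BM completing the 8.

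Several of the genes most often used as interferon reporters were close to silent. IFIT1, IFIT2, RSAD2 (viperin), IFI44, IFI44L, IFI27, HERC6 and IFITM3 stayed at or below 0.32 FPKM in every library, and these are the 8 members that failed the count filter. Of the 21 interferon ligand genes listed 4 (IFNB1, IFNE, IFNG and IFNL3) had any reads, and none exceeded 0.23 FPKM, the level of IFNG in the KMS18 knockdown. IFNB1 had 1 read in each knockdown library and 0 in each control library, which is at the limit of counting.

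**Figure D2:**
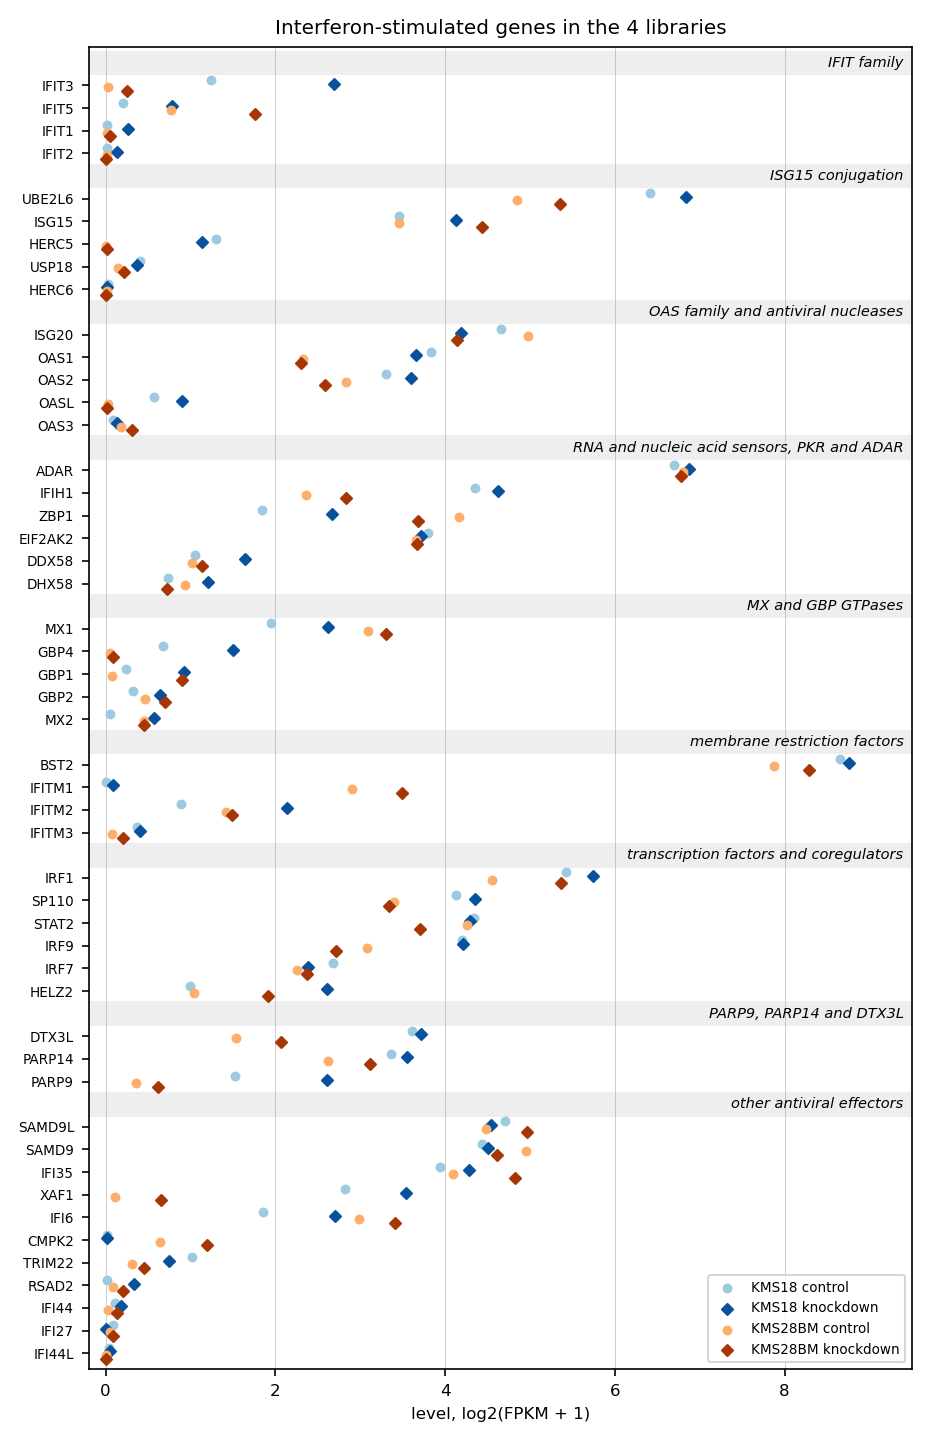
Level of each of the 49 interferon-stimulated genes as log2(FPKM + 1) on the x axis, grouped by role, with circles for control and diamonds for knockdown libraries (KMS18 blue, KMS28BM orange). BST2 lies far to the right of the other members, ADAR and UBE2L6 follow, and HERC5, XAF1, PARP9 and IFITM1 show wide gaps between the lines.

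Lowering PKCα was accompanied by higher levels of a minority of these genes and a lower level of 1. PRKCA, the targeted gene, was at 7.46 and 1.47 FPKM in KMS18 (control, then knockdown) and at 10.86 and 2.43 FPKM in KMS28BM. Over both lines 8 of the 41 tested members rose (19.5%) and 1 fell (2.44%) in edgeR's quasi-likelihood test with Benjamini-Hochberg adjustment, where 3.57% of all 14870 tested genes rose and 5.25% fell (8.82% called in all). The 8 were IFIT3, IFIT5, ISG15, UBE2L6, GBP1, IRF1, HELZ2 and PARP9, and the member that fell was ISG20. At an unadjusted p under 0.05 the counts were 17 higher and 2 lower, where 3919 of all 14870 tested genes passed in either direction. The median log2 difference of the 41 was 0.40, against 0.02 over all genes tested. Because each line was sequenced once per construct, the only replication behind these p-values is how closely the lines resemble each other in their response. That spread has 1 residual degree of freedom per gene, and edgeR moderates it with a trend over all genes (prior of 5.85 degrees of freedom). The p-values therefore rest on the other genes as well, and hold no spread between cultures of a line. Without the cell line in the model 0 members were called, and 0 of 14870 genes. HELZ2 was called in 7 of 7 alternative analyses with the cell line kept, ISG20 in 6 of 7, IFIT5 in 4 of 5, IFIT3 in 4 of 6, GBP1 in 2 of 3, ISG15, UBE2L6 and PARP9 in 4 of 7 and IRF1 in 3 of 7.

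The IFIT proteins bind viral RNA that lacks the marks of cellular mRNA. IFIT3 (GRCh38 chromosome 10, plus strand, bases 89327894 to 89340971) was at 1.36 FPKM in the KMS18 control and 5.47 in its knockdown, and at 0.02 and 0.19 FPKM in KMS28BM. The highest KMS28BM value was thus below the lowest KMS18 value, yet within each line the knockdown library was the higher. Over both lines the log2 difference was 2.10 (SE 0.34, adjusted p = 0.0153 by edgeR, higher in 2 of 2 lines), resting on 125 and 501 counts in KMS18 and on 2 and 18 in KMS28BM, where the 95% interval of the log2 count ratio ran from 1.12 to 6.34.

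IFIT5, which sits at the end of the same gene cluster (89414586 to 89421001), had the opposite order of lines. It was at 0.15 and 0.72 FPKM (KMS18) and at 0.70 and 2.38 FPKM (KMS28BM). The log2 difference was 1.89 (SE 0.285, adjusted p = 0.0133 by edgeR, higher in 2 of 2 lines). IFIT1 and IFIT2 were not tested. IFIT1 went from 1 to 16 counts in KMS18 and from 1 to 3 in KMS28BM, and IFIT2 from 1 to 11 and from 1 to 0, so that of the cluster IFIT3 and IFIT5 alone were measured well enough for a call.

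ISG15 is a small ubiquitin-like protein that is attached to other proteins, UBE2L6 is the enzyme that passes it on, HERC5 is its ligase and USP18 removes it. ISG15 (GRCh38 chromosome 1, plus strand, bases 1001138 to 1014540) was at 9.94 FPKM in both control libraries. It was at 16.5 FPKM in the KMS18 knockdown and 20.6 FPKM in the KMS28BM knockdown, so the knockdown libraries lay above both controls. The log2 difference was 0.82 (SE 0.17, adjusted p = 0.0348 by edgeR, higher in 2 of 2 lines).

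UBE2L6 (GRCh38 chromosome 11, minus strand, bases 57551656 to 57568284) was at 84.3 and 113 FPKM (KMS18) and at 27.8 and 40.0 FPKM (KMS28BM). Its rise was the smallest of the 8 and the nearest to the threshold, at a log2 difference of 0.40 (SE 0.10, adjusted p = 0.0491 by edgeR, higher in 2 of 2 lines). The ligase and the deconjugating enzyme had no call. HERC5 was at 1.46 and 1.19 FPKM in KMS18 and had 0 and 1 counts in KMS28BM. USP18, also a brake on the type I receptor, stayed between 0.11 and 0.32 FPKM (adjusted p = 0.942, edgeR).

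Among the GTPases, GBP1 (GRCh38 chromosome 1, minus strand, bases 89052319 to 89065360), a guanylate-binding protein strongly induced by interferon gamma, was at 0.18 and 0.90 FPKM (KMS18) and at 0.05 and 0.87 FPKM (KMS28BM). Both knockdown libraries were above both controls, at low levels. The controls held 11 and 2 counts and the knockdowns 93 and 89. The log2 difference was 3.82 (SE 0.61, adjusted p = 0.0153 by edgeR), and the 95% intervals of the log2 count ratios were 2.17 to 4.13 in KMS18 and 3.60 to 8.56 in KMS28BM. GBP2 (log2 difference 1.26, SE 0.43, adjusted p = 0.123 in edgeR), GBP4 (1.23, SE 0.37, adjusted p = 0.0857 in edgeR), MX1 and MX2 did not pass. MX1, a dynamin-like GTPase that traps viral nucleocapsids, was at 2.87 and 5.13 FPKM (KMS18) and at 7.51 and 8.87 FPKM (KMS28BM).

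Of the transcription factors and coregulators, IRF1 and HELZ2 rose. IRF1 (GRCh38 chromosome 5, minus strand, bases 132481609 to 132490798) was at 42.1 and 52.7 FPKM (KMS18) and at 22.5 and 40.4 FPKM (KMS28BM). The groups overlap across lines, since the KMS28BM knockdown was below the KMS18 control, and the log2 difference was 0.55 (SE 0.13, adjusted p = 0.0472 by edgeR, higher in 2 of 2 lines).

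HELZ2 (GRCh38 chromosome 20, minus strand, bases 63558086 to 63574239), a helicase that acts as a nuclear coactivator, had the lowest adjusted p of the 49 genes. It was at 0.99 and 5.10 FPKM (KMS18) and at 1.06 and 2.78 FPKM (KMS28BM), so that both knockdown libraries lay above both controls. Its counts were 354 and 1313, then 288 and 954. The log2 difference was 1.75 (SE 0.13, adjusted p = 0.00292 by edgeR).

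The other 4 of this group did not pass. STAT2 was at 19.3 and 18.5 FPKM (KMS18) and at 18.2 and 12.0 FPKM (KMS28BM) (log2 difference -0.38, SE 0.13, adjusted p = 0.132 by edgeR). IRF9 was at 17.4 and 17.5 FPKM, then 7.43 and 5.54 FPKM, and IRF7 was between 3.77 and 5.39 FPKM in all 4 libraries. SP110, a nuclear body protein, was at 16.5 and 19.4 FPKM, then 9.58 and 9.12 FPKM.

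PARP9 and DTX3L form a complex of an ADP-ribosylation factor and a ubiquitin ligase, and PARP14 is a related ADP-ribosyltransferase. PARP9 (GRCh38 chromosome 3, minus strand, bases 122527924 to 122564577) was at 1.87 and 5.12 FPKM (KMS18) and at 0.28 and 0.53 FPKM (KMS28BM). In log2 terms it rose by 1.18 (SE 0.20, adjusted p = 0.0188 by edgeR, higher in 2 of 2 lines). Its neighbour DTX3L was at 11.2 and 12.1 FPKM (KMS18) and at 1.91 and 3.19 FPKM (KMS28BM) (0.36, SE 0.15, adjusted p = 0.181 by edgeR). PARP14 was at 9.29 and 10.7 FPKM, then 5.16 and 7.69 FPKM (0.35, SE 0.11, adjusted p = 0.0988 by edgeR). PARP9 and DTX3L overlap at their 5′ ends in the annotation, and the library kit does not keep strand, so reads there cannot be assigned to one of them.

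ISG20, an exonuclease that degrades single-stranded RNA, was the exception in direction. It (GRCh38 chromosome 15, plus strand, bases 88636153 to 88656483) was at 24.3 and 17.2 FPKM (KMS18) and at 30.4 and 16.7 FPKM (KMS28BM), so that both knockdown libraries lay below both controls. In log2 terms ISG20 fell by 0.81 (SE 0.15, adjusted p = 0.0226 by edgeR, lower in 2 of 2 lines). The plasma cell markers moved with it: 6 of 9 fell and 1 rose, where 5.25% and 3.57% of all tested genes did, with XBP1 at 360 and 196 FPKM (KMS18) and at 472 and 265 FPKM (KMS28BM). Their part in the fall of ISG20 was not tested. The OAS enzymes of the same group, which make the signal that activates RNase L, had no call. OAS1 was at 13.3 and 11.6 FPKM (KMS18) and at 4.00 and 3.94 FPKM (KMS28BM), and OAS2 at 8.91 and 11.1 FPKM, then 6.14 and 5.02 FPKM.

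**Figure D3:**
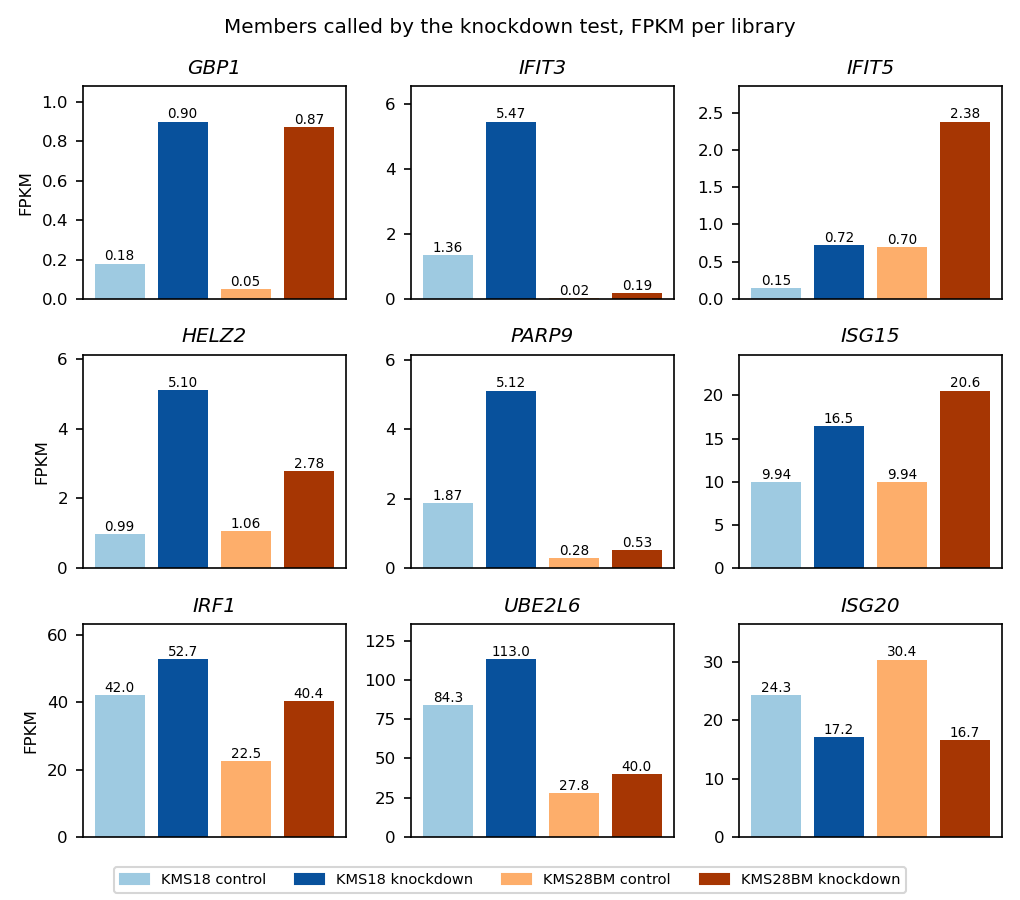
FPKM (y axis, from 0, scaled separately in each panel) of the 9 members called by the knockdown test, 1 bar per library, KMS18 before KMS28BM and control before knockdown. In 8 panels the knockdown bar is the taller within each line, and in the ISG20 panel it is the shorter.

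The remaining roles held no call. All 6 RNA and nucleic acid sensors had a log2 difference above 0, from 0.05 for ADAR and for PKR (EIF2AK2) to 0.61 for DHX58, and adjusted p-values from 0.0949 to 0.82 in edgeR. IFIH1 (MDA5), the sensor of long double-stranded RNA, was the nearest to a call, at 19.4 and 23.6 FPKM (KMS18) and at 4.12 and 6.14 FPKM (KMS28BM). DDX58 (RIG-I) was at 1.08 and 2.13 FPKM, then 1.02 and 1.2 FPKM.

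Of the membrane restriction factors, BST2 was at 399.9 and 433 FPKM (KMS18) and at 233 and 311 FPKM (KMS28BM) (log2 difference 0.20, SE 0.11, adjusted p = 0.311 by edgeR). IFITM2, which blocks virus entry, passed the size rule in KMS18 (0.85 to 3.39 FPKM) but was at 1.67 and 1.81 FPKM in KMS28BM. IFITM1, IFITM2 and IFITM3 are close copies of each other and IFITM1 and IFITM2 overlap in the annotation, so their values are uncertain. Among the other effectors, IFI35 (0.53, SE 0.14), XAF1 (1.16, SE 0.34) and IFI6 (0.69, SE 0.26) had edgeR adjusted p-values of 0.0582, 0.0811 and 0.144. XAF1, an antagonist of the apoptosis inhibitor XIAP, was at 6.07 and 10.6 FPKM (KMS18) and at 0.08 and 0.57 FPKM (KMS28BM).

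Within a line there is 1 library per construct and no test, so sizes alone were compared. A member passed the size rule when log2(FPKM + 1) differed by 1 or more and either library reached 1 FPKM. In KMS18, 4 of 32 members at that level passed, all higher: HELZ2 (1.62), IFIT3 (1.46), IFITM2 (1.25) and PARP9 (1.09), where 0.818% of 11742 genes passed higher (1.46% in either direction). In KMS28BM 0 of 28 passed, where 1.24% of 11455 genes passed higher (1.99% in either direction), and the largest differences were those of IFIT5 (0.99) and ISG15 (0.98), just under the limit. On a pseudocount of 0.1 the members past the rule numbered 7 in KMS18 and 4 in KMS28BM. The share of all genes was not counted on that pseudocount, and the shares above do not apply to it. The members at 1 FPKM had a median difference of 0.28 (KMS18) and 0.31 (KMS28BM), where all genes at that level had 0.04 and 0.05. The knockdown library was the higher for 24 of 32 in KMS18 and for 19 of 28 in KMS28BM, where 54.9% and 56.9% of all genes at 1 FPKM were.

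The lines did not move every member alike. Of 35 members at 1 FPKM or more in any library, 19 had a positive difference in log2(FPKM + 1) in both lines and 3 a negative one. With the knockdown 7 were higher in KMS18 and lower in KMS28BM, 5 the reverse, and CMPK2 had no difference in KMS18. The same split was not counted over all genes, so these counts are not read as particular to the members. The signs also depend on the scale. Of the members that differed in sign, DHX58, SP110, ADAR and TRIM22 had log2 count ratios above 0 in both lines, and IRF9 and IRF7 below 0 in both. HERC5 held 0 and 1 counts in KMS28BM. ZBP1, the sensor of Z-form nucleic acids that can trigger necroptosis, was furthest apart, at 2.59 and 5.37 FPKM (KMS18) and at 16.9 and 11.8 FPKM (KMS28BM). Its level was thus higher with the knockdown in the line that had less of it and lower in the line that had more. IFIT3 and IFITM2 followed on this scale, with differences of 1.46 and 1.25 in KMS18 and of 0.22 and 0.07 in KMS28BM. For IFIT3 the order depends on the scale, since adding 1 shrinks changes at 0.02 and 0.19 FPKM: its log2 count ratio was 2.002 in KMS18 and 3.178 in KMS28BM. A difference between the lines in their response cannot be tested with these 4 libraries.

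**Figure D4:**
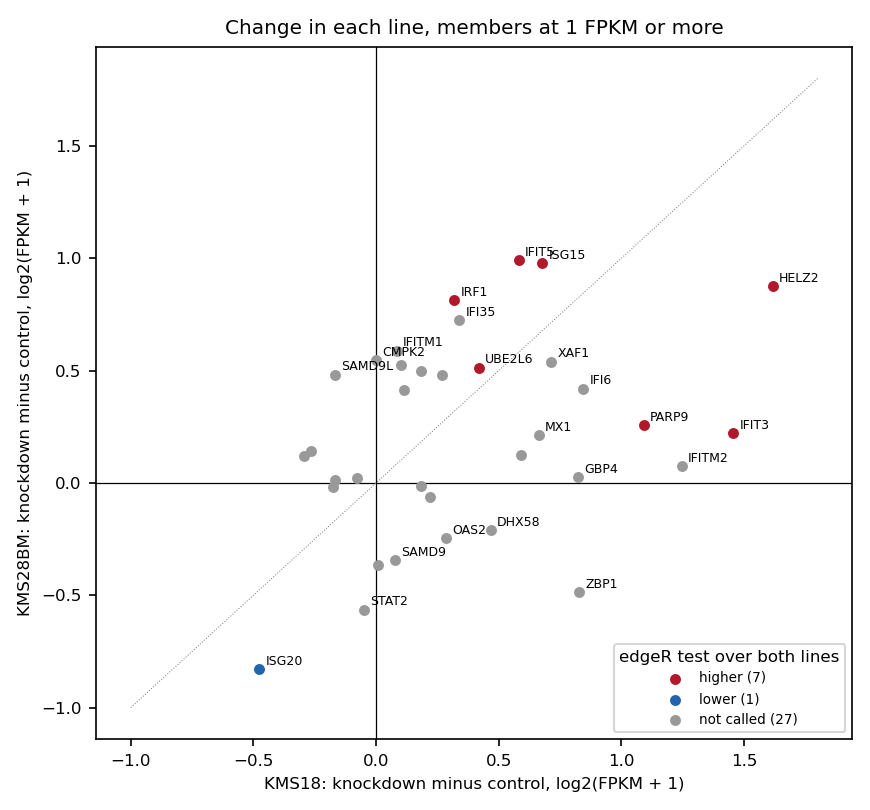
Knockdown minus control in log2(FPKM + 1), KMS18 on the x axis and KMS28BM on the y axis, 1 point per member at 1 FPKM or more in any library, coloured by the edgeR call over both lines, with a dotted line where both lines are equal. HELZ2 lies at 1.62 and 0.88, ISG20 lies low in both lines, and ZBP1 lies at 0.83 in KMS18 and -0.49 in KMS28BM.

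Calls between the lines were far more numerous than calls between the constructs. In the same edgeR fit, 20 of 41 members were higher in KMS18 (48.8%) and 8 were higher in KMS28BM (19.5%), where 32.3% and 30.6% of all genes were (62.9% called in all), so a call between lines is common in itself. The 2 libraries of a line are its only replicates, 1 per construct. The 6 largest differences toward KMS18 were those of HERC5, IFIT3, OASL, XAF1, GBP4 and PARP9. HERC5 was at 1.46 and 1.19 FPKM in KMS18 against 1 count in all in KMS28BM, a log2 ratio of summed counts of -8.42 with a 95% counting interval of -13.72 to -5.93. GBP4 was at 0.60 and 1.83 FPKM (KMS18) and at 0.04 and 0.06 FPKM (KMS28BM) (log2 difference -4.50, SE 0.39, adjusted p = 8.96e-05 by edgeR). OASL, an OAS relative without synthase activity that supports RIG-I, held 101 counts over the KMS18 libraries and 3 over the KMS28BM libraries, a log2 ratio of -5.12 (95% counting interval -7.43 to -3.54). XAF1 and PARP9, given above, had log2 differences of -4.81 and -3.24.

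The 6 largest differences toward KMS28BM were those of IFITM1, CMPK2, OAS3, ZBP1, IFIT5 and MX2. IFITM1 was at 6.46 and 10.2 FPKM (KMS28BM) and at 0 and 0.06 FPKM (KMS18), with 527 counts against 2, a log2 ratio of 7.99 (95% counting interval 6.13 to 11.04). CMPK2, a mitochondrial nucleotide kinase encoded beside RSAD2, was at 0.56 and 1.28 FPKM in KMS28BM and at 0.01 FPKM in both KMS18 libraries, with 190 counts against 2 (log2 ratio 6.52, interval 4.65 to 9.58). ZBP1 had a log2 difference of 2.04 (SE 0.36, adjusted p = 0.00237 by edgeR) and IFIT5 one of 1.83 (SE 0.28, adjusted p = 0.00129 by edgeR). OAS3 and MX2 stayed below 0.5 FPKM in every library. Members with no call between the lines included ISG15 (adjusted p = 0.72), ISG20 (0.919), ADAR (0.726) and SAMD9L (0.957, all edgeR), and a p that misses the threshold does not show that they are equal.

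Genes of innate sensing that are not among the 49 also differed between the lines, as most tested genes did (62.9% called). Of 13 tested, 5 were higher in KMS18 and 4 in KMS28BM. The cytosolic DNA sensor cGAS (MB21D1) was at 15.4 and 13.1 FPKM (KMS18) and at 0.02 and 0.06 FPKM (KMS28BM), with 3203 counts against 10. Its partner STING (TMEM173) had the reverse order, at 9.24 and 18.6 FPKM (KMS18) and at 35.6 and 60.5 FPKM (KMS28BM). Chosen after their values were seen, as cGAS was, IRF5 and MYD88 were higher in KMS18, and the endosomal receptors TLR7 and TLR9 were higher in KMS28BM (TLR9 at 4.03 FPKM in its control). Of the 41 tested members, 20 were higher in KMS18 and 8 in KMS28BM, where 32.3% and 30.6% of all genes were. In the KMS28BM control STAT2, BST2 and ADAR were at 18.2, 233 and 110 FPKM, and IFIT3, XAF1 and OASL at 0.02, 0.08 and 0.02 FPKM. The part of cGAS in these levels was not tested.

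**Figure D5:**
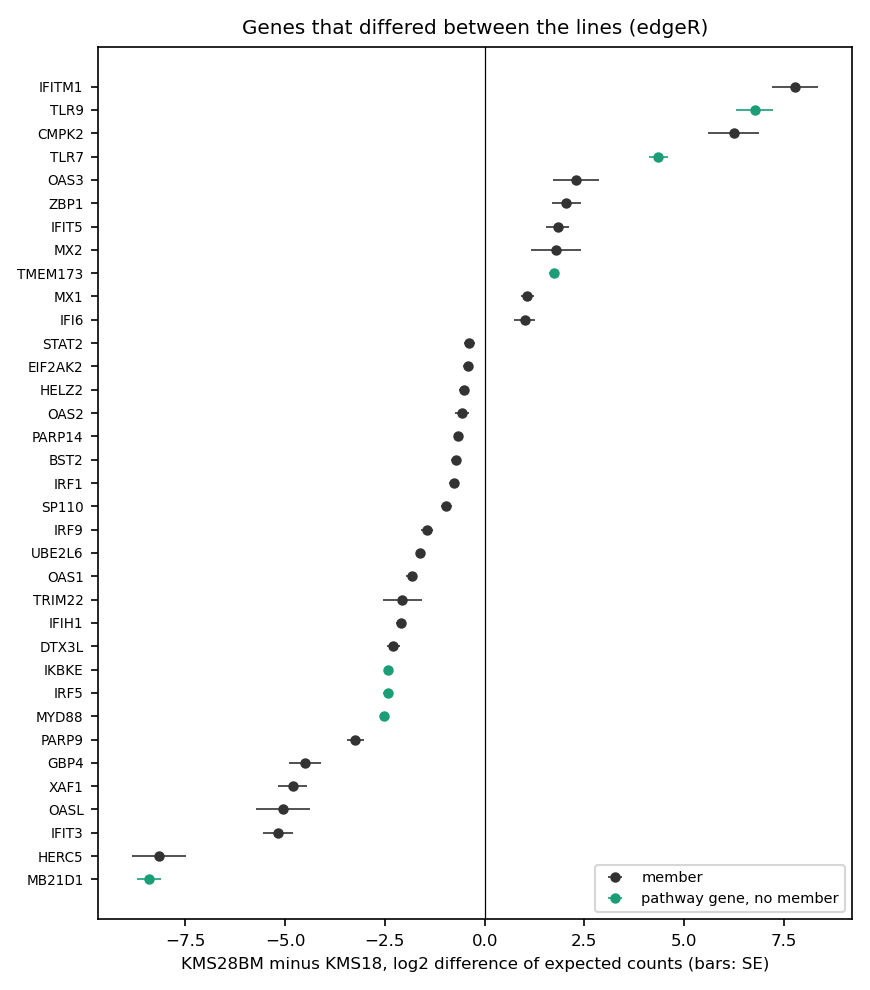
Log2 difference between the lines (x axis, KMS28BM minus KMS18, from expected counts over both constructs, bars show the SE) for the 28 members called by the edgeR test and, in green, 7 pathway genes that are no members. Negative values are higher in KMS18. MB21D1 and HERC5 lie far to the left and IFITM1 lies at the right end.

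Genes upstream of the members were called in both directions, where 3.57% of all tested genes rose and 5.25% fell. Of 9 receptor and kinase genes, IFNAR1, a chain of the type I receptor, fell by 0.46 in log2 terms (SE 0.095, adjusted p = 0.0334 by edgeR), with 30.6 and 24.95 FPKM in KMS18 and 33.7 and 29.03 in KMS28BM. IFNAR2 was at 34.9 and 21.5 FPKM, then 49.1 and 30.4 FPKM. Its counts, which the test used, differed less, at 2750 and 2350, then 4117 and 3459. The log2 difference was -0.30 (SE 0.093, adjusted p = 0.095 by edgeR). JAK1 and TYK2 had adjusted p-values of 0.958 and 0.638 in edgeR. Of 7 signal transducers, STAT3 rose by 0.75 (SE 0.095, adjusted p = 0.00953 by edgeR) and NMI, an adaptor that binds STAT proteins, by 0.87 (SE 0.17).

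Of 13 tested innate sensing genes, TMEM173 rose by 0.83 (SE 0.11, adjusted p = 0.011 by edgeR) and TLR9 fell by 2.69 (SE 0.38, adjusted p = 0.0122 by edgeR), from 4.03 to 0.70 FPKM in KMS28BM, with 6 counts in all in KMS18. Of 9 negative regulators, PIAS1, an inhibitor of STAT signalling, fell by 0.46 (SE 0.093) and NLRC5 rose by 0.50 (SE 0.10), with edgeR adjusted p-values of 0.0313 and 0.0342. NLRC5 also drives transcription of class I antigen presentation genes.

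Interferon-induced genes outside the list were also called. They too were chosen with earlier results of these data known, so they are no independent check of the members. Of 50 tested, 8 rose and 0 fell, where 3.57% of all tested genes rose and 5.25% fell. A positive difference was found for 40 of the 50, against 52.5% of all tested genes, and the median log2 difference was 0.31, against 0.02. LGALS3BP, a secreted glycoprotein, was at 0.20 and 2.22 FPKM (KMS18) and at 0.20 and 2.39 FPKM (KMS28BM), a log2 difference of 3.47 (SE 0.36, adjusted p = 0.0056 by edgeR). SLFN5 (1.52, SE 0.24), the lysosomal reductase IFI30 (1.12, SE 0.21) and the helicase ZNFX1 (0.73, SE 0.11) followed. The other 4 that rose were PML, PARP10, RNF213 and LY6E, named after their values were seen.

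Some values depend on whether counts or FPKM are read, because the tables list a mean gene length per library that shifts with the transcripts assigned. For HELZ2 in KMS18 the listed length was 9447 bases in the control and 6801 in the knockdown, and its FPKM ratio of 5.15 compares with 354 and 1313 counts. For GBP1 the listed length was 1674 and 2775 bases in KMS18 and 1001 and 2643 bases in KMS28BM. Its FPKM ratios of 5.0 (KMS18) and 17.4 (KMS28BM) compare with 11 and 93 counts and with 2 and 89 counts. For DHX58 in KMS28BM the listed length was 1220 and 2132 bases, so that 42 and 53 counts became 0.91 and 0.65 FPKM. IRF7 and IFI27 each had 2 gene identifiers, which were summed.

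Library totals ran from 37940949 to 39507281 expected counts, with 11100 to 11591 genes at 1 FPKM or more. All 9 plasma cell markers were at 1 FPKM or more in all 4 libraries. Among markers of other cells, COL1A2, CDH5, HBA1, CLEC4C and ALAS2 were listed at 0 in every library, and CD14, the monocyte marker, reached at most 0.08 FPKM. Others were present at low levels. PECAM1, an endothelial and leukocyte adhesion molecule, was at 0.54 and 2.25 FPKM (KMS18) and at 0.79 and 0.88 FPKM (KMS28BM), and passed the size rule in KMS18. The integrin ITGAM was at 0.47 and 1.61 FPKM (KMS18) and at 0.19 and 0.08 FPKM (KMS28BM). IL3RA was between 1.06 and 2.08 FPKM, NCAM1 reached 1.55 FPKM, and PAX5 reached 2.29 FPKM in KMS18 and was listed at 0 in KMS28BM. None of PECAM1, ITGAM, IL3RA, NCAM1 and PAX5 was called over both lines in edgeR. The summed level of the 6 T and NK cell markers was 9.1 and 22.5 FPKM (KMS18) and 2.6 and 5 FPKM (KMS28BM), that of the 5 monocyte markers between 0.4 and 2.1 FPKM and that of the 3 endothelial markers between 0.5 and 2.2 FPKM. Their part in the members' results was not tested. CD3E, a T cell receptor chain, was at 7.32 and 21.0 FPKM (KMS18) and at 1 and 3.27 FPKM (KMS28BM). Unlike those markers, CD3E was called higher with the knockdown over both lines (adjusted p = 0.00611 by edgeR). It also passed the size rule in each line. CD3D reached at most 0.22 FPKM and CD8A 0.03 FPKM. In bulk RNA, fewer cells with a transcript and less of it per cell cannot be told apart. The letters AGTCTA were searched in GENCODE 29 transcripts because an earlier look at these data found them, extended by 1 base, among the most lowered genes. Among all genes, 552 of 6258 tested genes that held them fell, against 206 of 7164 without. This contrast cannot test the letters, since they were found in these same data. A gene counted as holding them if any of its transcripts did. Of the members, 20 tested genes held the letters and 21 did not, with median log2 differences of 0.38 and 0.50. Of each set 4 rose, and ISG20 did not hold them. The part of these letters in the results was not tested.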

How the data were processed

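RNA sequencing libraries were analysed, 1 for each of 4 pairs of line and construct. The authors deposited 1 gene table per library, per the file headers, with expected counts (estimated, and whole within 0.005 for 52.2% to 54.0% of rows) and with FPKM values to 2 decimals. GRCh37, hg19 and the aligners HISAT, STAR and Bowtie2 appear in the submitters' processing notes without roles, while no source used here names the program that counted. Rows sharing a symbol were summed. Expected counts were rounded and tested with edgeR 4.0.16 (R 4.3.3): TMM scaling, default filter (minimum count 10), quasi-likelihood test, cell line and construct in the model, Benjamini-Hochberg adjustment over 14870 genes at 0.05. The libraries are paired by their line, as the labels give it. This left 1 residual degree of freedom and a prior of 5.85. The fit was tested on simulated data. Intervals on counts (95%, exact, conditional on the sum) cover counting error only, and depth was alike in all libraries. For single lines, log2(FPKM + 1) was subtracted, which understates changes of low genes. DESeq2 1.42.0 and limma 3.58.1 were alternatives. Gene spans come from GENCODE 29 (GRCh38) by gene identifier, promoters from RefSeq by symbol (38 of 49 matched). Values in full are given for members called over both lines, past the size rule, among the 8 highest per control, the 6 largest line differences each way or the 3 furthest apart. For other pathway genes, up to 4 called per list and direction are named. Further genes are named to complete a role group, chosen after their values were seen. Some genes are not reported here. Members and lists were chosen with earlier results of these data known.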

Additional observations from a re-analysis of the deposited data

Results flagged for a closer look

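For 4 members, counts scaled by library totals were higher with the knockdown in 1 line and lower in the other, each by more than counting error. The share of all genes meeting this rule was not counted, so these 4 are not read as particular to the members. Small differences pass where counts are high. SAMD9 in KMS18 held 5330 and 5630 counts, and the interval of its log2 count ratio ran from 0.02 to 0.13. The difference between the lines was not tested, since each line has 1 library per construct. For ZBP1 the change in log2(FPKM + 1) was 1.31 smaller in KMS28BM (-1.31 for KMS28BM minus KMS18). For OAS2 this difference was -0.53 and for SAMD9, a restriction factor of poxviruses, it was -0.42, where SAMD9 went from 20.6 to 21.7 FPKM (KMS18) and from 30.05 to 23.5 FPKM (KMS28BM). For SAMD9L, the neighbour of SAMD9 on chromosome 7, it was 0.65 in the other direction, from 25.2 to 22.3 FPKM (KMS18) and from 21.4 to 30.2 FPKM (KMS28BM). The 2 neighbours therefore had opposite patterns between the lines.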

How the results depend on the processing

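None of the 9 called members changed sign under the alternatives run. The 8 higher calls of 41 tested members became 6 of 41 with median of ratios scaling (3.54% of all genes). They became 6 of 27 at 5 CPM in 2 libraries (5.72%) and 6 of 27 with DESeq2 (4.75%). IFIT5 and GBP1 had no adjusted p under either. With limma on log2(FPKM + 0.1) the calls became 9 of 35 (4.91%). They became 5 of 35 with limma on log2(FPKM + 1) (4.3%) and 5 of 41 with rows not summed (2.18%). With no filter on low counts they became 2 of 49 (0.561%). IFI35, XAF1 and IFI6 were called in some of these. The 1 lower call became 0 with no filter. Without the replicate block for cell line the calls were 0 higher and 0 lower (0 genes in the whole table either), so they rest on the pairing by line. Of the 8 members higher in KMS28BM, 4 were left at 5 CPM, where 27 members were tested (32.6% of all genes). With DESeq2 5 were left (25.7%), as were 5 without construct in the model (no replicate block, 20.6%). The 4 members past the size rule in KMS18 became 7 at a pseudocount of 0.1 and 7 on TMM-scaled CPM, and the 0 in KMS28BM became 4 under each. The shares of all genes under these settings were not counted. No line can be left out of the test, since 1 line leaves no residual degree of freedom; each line's values are given instead. Depth limits the 8 members under the count filter and the KMS28BM values of IFIT3 and GBP1. The cause of these shifts was not tested.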
